A study of Mus musculus with 12 samples.

Results

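The 7 genes described here, Abcb1a, Abcb1b, Abcg2, Abcc1, Abcc4, Abcc5 and Abca1, encode ATP-binding cassette (ABC) transporters that export drugs, conjugates or lipids from cells. They were chosen by name and were taken as the 7 rows with those symbols among the 21638 genes of the count table, which also holds 46 other ABC transporter genes. With mean counts of 10 or more across the 12 libraries, all 7 were among the 12577 genes tested. RNA was sequenced from endothelial cells of the adult mouse brain cortex that had been sorted by flow cytometry as CD31+, CD41- and CD45-, in 4 groups of 3 libraries. The groups were wild type (WT), Hdac2 ECKO (Hdac2lox/lox:Cdh5CreERT2), Ezh2 ECKO (Ezh2lox/lox:Cdh5CreERT2) and beta-catenin GOF (Ctnnb1lox/lox:Cdh5CreERT2, described as constitutive activation). In the mutants Cre is driven by the endothelial Cdh5 promoter and is activated by tamoxifen, of which mice received 5 doses at 75 mg per kg. Brains were taken 2 months later. The labels give no alleles for WT and do not say whether WT mice carried Cre or received tamoxifen. They also do not say whether libraries of a group came from separate mice, so p-values measure the spread between these libraries, which may in part be technical.

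ABC transporters use ATP to move substrates across membranes. At the blood-brain barrier, P-glycoprotein (encoded in mice by the gene pair Abcb1a and Abcb1b) and the breast cancer resistance protein (Abcg2) sit on the blood-facing membrane of endothelial cells and return many lipophilic drugs to the blood. The multidrug resistance-associated proteins Abcc1, Abcc4 and Abcc5 export conjugated organic anions and, for Abcc4 and Abcc5, cyclic nucleotides. Abca1 passes cholesterol and phospholipid to apolipoproteins and is induced by the oxysterol-sensing liver X receptors (LXR).

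Libraries held 24781070 to 36109975 counts. The targeted genes were checked first. Hdac2 had a level of 129 ± 30.1 CPM (counts per 1000000 counts of a library after TMM scaling; SD, n = 3) in WT against 96.5 ± 15.2 CPM in Hdac2 ECKO, which overlapped and did not pass (adjusted p 0.225 by edgeR). It was as low in beta-catenin GOF (96.2 ± 10.1 CPM), so the Hdac2 level does not tell the Hdac2 ECKO libraries from the others, and that genotype too rests on the label. Ezh2 had a level of 6.75 ± 3.52 CPM in WT against 8.92 ± 3.36 CPM in the group called Ezh2 ECKO (adjusted p 0.615 by edgeR). These are therefore called the libraries labelled Ezh2 ECKO, or labelled Ezh2 ECKO libraries, and every direction given for them rests on that label. Ctnnb1 averaged 583 ± 109 CPM for beta-catenin GOF against 654 ± 138 for WT, which overlapped (adjusted p 0.962 by edgeR). The Ctnnb1 level therefore does not tell the beta-catenin GOF libraries from WT, and their genotype also rests on the label. Ctnnb1 was higher for Hdac2 ECKO (1160 ± 271 CPM, apart from WT) but did not pass (adjusted p 0.0711 by edgeR). Labelled Ezh2 ECKO overlapped WT (1100 ± 303 CPM, adjusted p 0.131 by edgeR). Counts per gene do not resolve a change within Hdac2, Ezh2 or Ctnnb1, so whether part of a targeted gene was lost was not tested. The summed level of 12 endothelial markers was 18500 to 20200 CPM in Hdac2 ECKO, below the range of every other group (22100 to 26600 in WT, 21300 to 25200 in labelled Ezh2 ECKO and 23300 to 26400 in beta-catenin GOF). Ly6c1 led this sum (12900 CPM on average in WT and 8130 in Hdac2 ECKO). Cldn5, Emcn and Pecam1 were also lower on average in Hdac2 ECKO, while Cdh5, Tek, Kdr, Flt1, Erg, Slc2a1, Slco1a4 and Slco1c1 were higher. Of the 12 tested, 1 passed as higher and 0 as lower there, against 3.82% and 5.38% of all tested genes, with a median log2 fold change of 0.24. On the first principal component (41.1% of the variance) library 2 of the labelled Ezh2 ECKO group (score −20.89) lay among the WT and beta-catenin GOF libraries, apart from libraries 1 (43.99) and 3 (40.33). Hdac2 ECKO library 2 (6.28) also lay apart from libraries 1 (63.63) and 3 (46.39) of its group. In bulk samples, fewer cells of a type and less RNA per cell cannot be told apart.

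The mouse P-glycoprotein pair is shown first because the likeness of its sequences bears on how its reads can be assigned. Abcb1a (ENSMUSG00000040584.8) spans 8660077 to 8748575 and Abcb1b (ENSMUSG00000028970.9) 8798147 to 8866315 on chromosome 5, both on the plus strand (GRCm38, GENCODE M21). Their open reading frames of 3831 bases each were identical in 87.6% of aligned columns, with a longest identical run of 338 bases. The 120-base stretch without gaps that holds the most differences (38) is printed for each gene from the GENCODE transcripts, with differing bases in capitals. It covers coding bases 2128 to 2247 of Abcb1a and 2134 to 2253 of Abcb1b.
Abcb1a: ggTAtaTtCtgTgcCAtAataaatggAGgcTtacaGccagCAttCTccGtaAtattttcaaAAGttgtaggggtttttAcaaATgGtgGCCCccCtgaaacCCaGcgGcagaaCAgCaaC
Abcb1b: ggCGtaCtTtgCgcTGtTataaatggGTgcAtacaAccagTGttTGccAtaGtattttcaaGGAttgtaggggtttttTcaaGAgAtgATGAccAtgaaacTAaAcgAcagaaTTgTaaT
Of all 75-base windows in the transcripts, 12.5% of those of Abcb1a and 8.13% of those of Abcb1b also occur in the other gene or in Abcb4, so the counts of the pair are uncertain. As Abcb1a has far more counts than Abcb1b, these shares do not bound the error of the Abcb1b counts, and a small part of the Abcb1a reads assigned to Abcb1b would alter its level strongly. Exons of Abcb1a and Abcb1b also overlap the opposite-strand genes Gm42686 and Gm5106, and the strand setting of the counting was not given in the sources used here. Windows of Abcg2, Abcc4, Abcc5 and Abca1 were unique, and 0.0831% of those of Abcc1 were shared.

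Promoter sequence is shown for the member that passed the test. It is also shown for the member with the most matches to the core motif of the TCF/LEF factors, the DNA-binding partners of beta-catenin. RefSeq windows (GRCm38.p6) matched 6 of the 7 members by symbol. The entry for Abcc1 was missing. The 250 bases before the start of Abca1 lie at chr4:53159896-53160145 on the minus strand, and capitals mark the matches to the GC box.
Abca1: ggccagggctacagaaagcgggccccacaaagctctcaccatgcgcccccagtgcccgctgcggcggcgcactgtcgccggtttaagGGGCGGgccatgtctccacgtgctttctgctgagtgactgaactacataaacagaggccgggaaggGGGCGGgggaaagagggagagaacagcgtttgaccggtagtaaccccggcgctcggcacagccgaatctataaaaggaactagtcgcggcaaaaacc
The 250 bases before the RefSeq start of Abcb1a lie at chr5:8566841-8567090 on the plus strand, 93.0 kb before the GENCODE start given above, and capitals mark the TCF/LEF matches.
Abcb1a: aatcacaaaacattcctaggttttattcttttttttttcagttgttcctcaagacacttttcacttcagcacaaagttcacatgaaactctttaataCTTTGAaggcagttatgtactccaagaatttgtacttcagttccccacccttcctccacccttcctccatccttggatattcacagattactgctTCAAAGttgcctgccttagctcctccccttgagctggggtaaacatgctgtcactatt
The GC box (GGGCGG, either strand) occurred 2 times in the Abca1 window and in 32.7% of all 32851 windows. It also occurred 2 times in 1 window of Abcg2 and 4 times in another, 3 times in 1 window of Abcc4 and 1 time in that of Abcb1b. The TCF/LEF core (CTTTGA, either strand) occurred 2 times in the Abcb1a window, 1 time in that of Abcc5 and in 13.8% of all windows. It was not found in the windows of Abca1, Abcb1b, Abcg2 and Abcc4. The core of the xenobiotic response element (GCGTG), which 28.2% of windows hold, occurred 2 times in 1 of the windows of Abcc4. The nuclear receptor half-site AGGTCA, in 14% of windows, was found for Abcg2 alone among the 6 matched members, 2 times in 1 window and 1 time in another. None of the other motifs searched (the antioxidant response element core TGACNNNGC, the CCAAT box and the ETS core CAGGAA) matched in the printed windows, and the capitalised matches there overlapped no match to another motif. A match describes the letters only.

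Per length, Abcg2 was the most abundant of the 7 transporters. Its level in WT was 243 ± 34.1 CPM per kb of exon (n = 3), rank 311 among the tested genes. Abcb1a followed at 106 ± 5.07 CPM per kb, rank 712. Together they made up most of the summed level of the 7 genes, 65.3 ± 4.43% for Abcg2 and 28.6 ± 3.32% for Abcb1a in WT. Abcc4 stood at 17.6 ± 4.56 CPM per kb (rank 2589) and Abca1 at 2.52 ± 0.406 CPM per kb (rank 6865). The order Abcg2, Abcb1a, Abcc4, Abca1 held in all 12 libraries, and Abcc1 was the lowest in all 12. Abcc5 (1.27 ± 0.231 CPM per kb in WT) and Abcb1b (1.13 ± 0.298) did not differ beyond their spread, and Abcb1b was the higher of them in 7 of 12 libraries. Abcc1 had 0.22 ± 0.0732 CPM per kb in WT, rank 11342. The most abundant of the other ABC genes per length in WT were Abcf2 (9.85 ± 4.72 CPM per kb), Abcf1, Abce1 and Abcf3, which are ABC proteins without membrane-spanning segments, and Tap1 (5.47 ± 7.06), a subunit of the antigen peptide transporter. All of these stood between Abcc4 and Abca1.

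**Figure D1:**
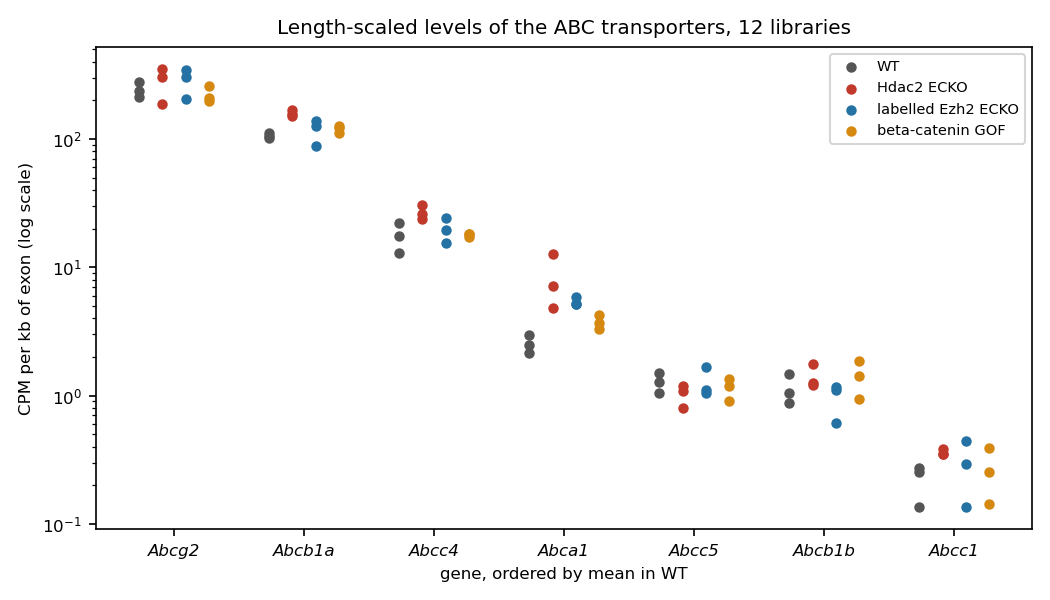
Level of each transporter as CPM per kb of exon on a log axis, with 1 point for each of the 12 libraries, coloured by group. Abcg2 and Abcb1a lie highest, Abcb1b and Abcc5 overlap, and Abcc1 is lowest in every library.

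Abca1, the lipid exporter, was the only one of the 7 transporters to pass in any comparison. Abca1 (ENSMUSG00000015243.4, chromosome 4, 53030787 to 53159895, minus strand, 50 merged exons) stood at 22.2, 25.5 and 30.6 CPM in the WT libraries. It stood at 132, 49.9 and 74.4 CPM in Hdac2 ECKO and at 53.8, 53.6 and 60.6 CPM in the labelled Ezh2 ECKO libraries. In beta-catenin GOF the values were 44.0, 37.8 and 34.2 CPM. All 9 mutant libraries lay above the highest WT library, and the Hdac2 ECKO libraries differed most among themselves. How many of all tested genes lay above WT in all 9 mutant libraries was not counted. It can be no more than the 6.83% that lay wholly above WT in beta-catenin GOF. The first Hdac2 ECKO library was the highest of the 12.

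In Hdac2 ECKO, Abca1 rose 3.27-fold over WT (95% interval 2.07 to 5.19, log2 fold change 1.71, SE 0.312, adjusted p 0.0323 by edgeR). It was 1 of 7 transporters called, against 9.2% of all tested genes in that comparison. Among the labelled Ezh2 ECKO libraries it was 2.15-fold the WT level (1.36 to 3.38, log2 fold change 1.10, SE 0.308), which did not pass (adjusted p 0.0716 by edgeR). There 0 of 7 transporters were called, against 1.03% of all genes. In beta-catenin GOF it was 1.48-fold the WT level (0.946 to 2.33, log2 fold change 0.57, SE 0.305, adjusted p 0.882 by edgeR). In that comparison edgeR called 0 of 12577 genes (0%), with 763 at an unadjusted p under 0.05 and 38 called by DESeq2. The 3 comparisons share the WT libraries.

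The call in Hdac2 ECKO depended on single libraries. It was lost without WT library 1 (log2 fold change 1.61, adjusted p 0.113 by edgeR), WT library 2 (1.69, 0.0913), Hdac2 ECKO library 1 (1.23, 0.155) or Hdac2 ECKO library 3 (1.77, 0.13), in which fits 0, 0, 3 and 0 genes of the whole table were called. It held without WT library 3 (adjusted p 0.018 by edgeR) and without Hdac2 ECKO library 2 (0.0104), where 1872 and 2216 genes were called. For the labelled Ezh2 ECKO group, Abca1 passed when WT library 3 or mutant library 2 was left out (edgeR adjusted p 0.0449 and 0.0292), and with DESeq2, no filter on low counts or sample quality weights (adjusted p 0.0155, 0.0122 and 0.00518).

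**Figure D2:**
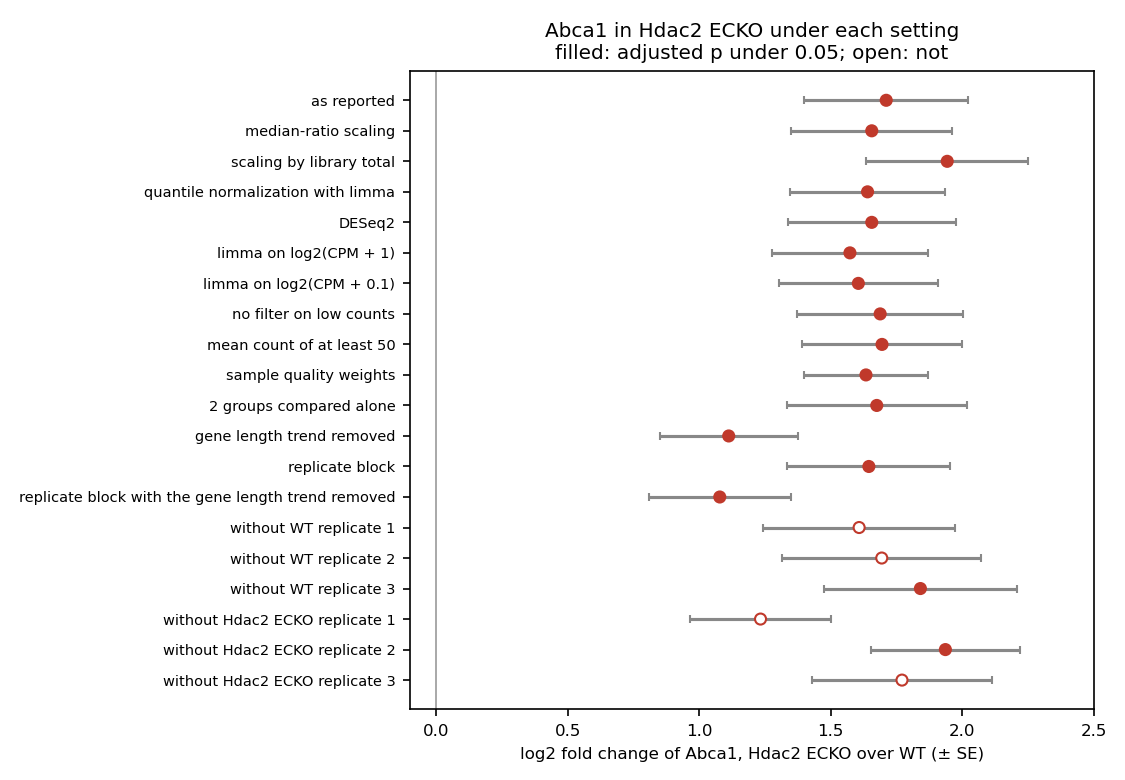
Log2 fold change of Abca1 in Hdac2 ECKO over WT (± SE) under each setting, with filled points for adjusted p under 0.05. The value lies above 0 in every setting, and it is open in 4 of the 6 fits with 1 library removed.

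The mutants were also compared with each other. Abca1 differed by 0.61 on the log2 scale between Hdac2 ECKO and the labelled Ezh2 ECKO libraries (SE 0.305, adjusted p 0.619 by edgeR). Between beta-catenin GOF and Hdac2 ECKO the log2 fold change was −1.14 (SE 0.307, adjusted p 0.168 by edgeR), and the groups did not overlap. Between beta-catenin GOF and the labelled Ezh2 ECKO libraries it was −0.54 (SE 0.305, adjusted p 0.449 by edgeR), again without overlap. None of the 7 transporters was called in these 3 comparisons, where 0.0239%, 0.0716% and 0.0636% of all genes were. Groups lay wholly apart for 2 of 7 transporters in the first comparison (Abcb1a and Abcb1b, higher in Hdac2 ECKO; 13.2% of all genes, 7.78% in that direction). They lay apart for 3 in the second (Abcb1a, Abcc4 and Abca1, lower in beta-catenin GOF; 32% of all genes, 15.9% in that direction) and for 1 in the third (Abca1, lower in beta-catenin GOF; 16.6% and 8.67%). Without Hdac2 ECKO library 2 the second of them passed for Abca1 (−1.38, adjusted p 0.0415 by edgeR). For the other 6 transporters the log2 fold changes between mutants ran from −0.60 (Abcc4, beta-catenin GOF against Hdac2 ECKO, adjusted p 0.202 by edgeR) to 0.56 (Abcb1b, Hdac2 ECKO against labelled Ezh2 ECKO, 0.69).

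Among the drug efflux pumps, Abcb1a had 553, 575 and 608 CPM in WT and 922, 828 and 853 CPM in Hdac2 ECKO. These groups did not overlap, and each varied little (coefficient of variation 4.8% and 5.59%). The difference was 1.5-fold (95% interval 1.07 to 2.09, log2 fold change 0.58, SE 0.227) and did not pass (adjusted p 0.0936 by edgeR). It passed when counts were scaled by the library total (log2 fold change 0.83, adjusted p 0.0364 by edgeR), with DESeq2 (0.53, DESeq2 adjusted p 0.0463) and with sample quality weights (adjusted p 0.00593). Abcb1a had 748, 485 and 689 CPM in the labelled Ezh2 ECKO group. The low value belonged to library 2, which also lay apart on the first principal component, and the group overlapped WT (log2 fold change 0.15, SE 0.226, adjusted p 0.719 by edgeR). In beta-catenin GOF it had 609, 691 and 666 CPM, just above the WT range (log2 fold change 0.18, SE 0.226, adjusted p 0.952 by edgeR).

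Abcb1b, the other gene of the pair, had 11.7, 8.3 and 7.05 CPM in WT. In CPM per kb Abcb1a was 69.1 to 126 times as high as Abcb1b in WT and 65.7 to 224 times over all mutant libraries. Abcb1b ranged from 9.58 to 14.1 CPM in Hdac2 ECKO, from 4.86 to 9.23 CPM in the labelled Ezh2 ECKO libraries and from 7.5 to 14.8 CPM in beta-catenin GOF. All 3 ranges overlapped WT, and the smallest edgeR adjusted p was 0.555.

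Abcg2 (ENSMUSG00000029802.13, chromosome 6, 58584523 to 58695676, plus strand) had 2290, 1930 and 1740 CPM in WT. It had 2860, 1520 and 2470 CPM in Hdac2 ECKO and 2810, 1670 and 2470 CPM in the labelled Ezh2 ECKO libraries. In both of these groups library 2 was the lowest and lay below every WT library. beta-catenin GOF had 1620, 1700 and 2100 CPM. All groups overlapped WT. The fold changes were 1.15 (95% interval 0.754 to 1.75), 1.17 (0.765 to 1.78) and 0.911 (0.598 to 1.39), and each interval spans both higher and lower levels. The ratio of Abcg2 to Abcb1a in CPM per kb had a median of 2.25 in WT, 1.95 in Hdac2 ECKO, 2.41 in the labelled Ezh2 ECKO libraries and 1.79 in beta-catenin GOF, with overlapping ranges for Hdac2 ECKO (1.23 to 2.09) and WT (1.92 to 2.78).

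Of the conjugate exporters, Abcc4 (ENSMUSG00000032849.14, chromosome 14, 118482692 to 118706219, minus strand) had 112, 83.1 and 141 CPM in WT and 196, 166 and 152 CPM in Hdac2 ECKO. The groups did not overlap, at 1.53-fold (95% interval 1.06 to 2.21, log2 fold change 0.61, SE 0.249, adjusted p 0.106 by edgeR). The difference passed with scaling by the library total (log2 fold change 0.87, adjusted p 0.0447 by edgeR), quantile normalization (0.81, limma adjusted p 0.0349) and sample quality weights (adjusted p 0.00453). Abcc4 had 125, 98.9 and 155 CPM in the labelled Ezh2 ECKO libraries and 116, 109 and 115 CPM in beta-catenin GOF. Both overlapped WT, with log2 fold changes of 0.17 and 0.01 (edgeR adjusted p 0.704 and 0.999).

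Abcc1 (ENSMUSG00000023088.17, chromosome 16, 14361558 to 14475737, plus strand) was measured from 63 to 224 counts a library. It had 3.82, 2.06 and 4.09 CPM in WT and 5.26, 5.74 and 5.27 CPM in Hdac2 ECKO, again without overlap, but with a wide interval (1.63-fold, 0.772 to 3.45, adjusted p 0.342 by edgeR). In the other mutants it ranged from 2.04 to 6.72 CPM. Abcc5 (ENSMUSG00000022822.16, chromosome 16, 20331303 to 20426394, minus strand) was the only transporter with a lower mean in Hdac2 ECKO than in WT. It had 13.7, 11.1 and 16.1 CPM in WT and 11.6, 12.8 and 8.49 CPM in Hdac2 ECKO, and the groups overlapped (log2 fold change −0.31, SE 0.304, adjusted p 0.493 by edgeR). It ranged from 9.74 to 17.9 CPM in the other mutants.

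**Figure D3:**
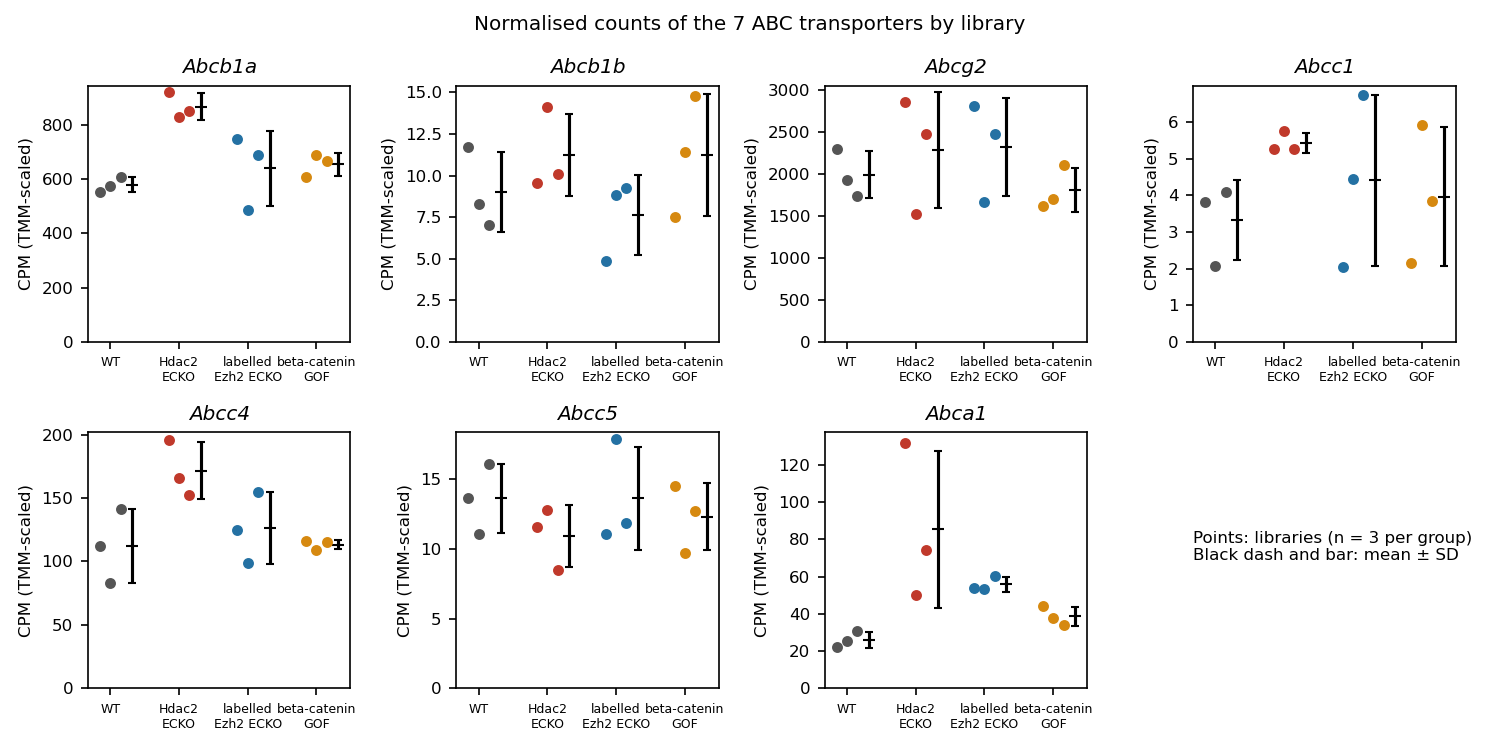
TMM-scaled CPM of each transporter by group, with 1 point per library and the mean ± SD (n = 3) beside it. All 9 mutant libraries exceed the WT range for Abca1, while for Abcg2, Abcb1b and Abcc5 every mutant group overlaps WT.

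Counted over the 7 transporters, 4 (Abcb1a, Abcc1, Abcc4 and Abca1) had all Hdac2 ECKO libraries above all WT libraries and 0 had all below, while 37.8% of all tested genes had groups that did not overlap (19.5% with the mutant higher). In the labelled Ezh2 ECKO libraries this held for 1 (Abca1; 22% of all genes in either direction, 11.1% higher), and in beta-catenin GOF for 2 (Abcb1a and Abca1; 12.7% in either direction, 6.83% higher). The log2 fold change was above 0 for 6, 5 and 5 of the 7 in Hdac2 ECKO, labelled Ezh2 ECKO and beta-catenin GOF, against 54%, 52.6% and 51.1% of all genes. The median over the 7 was 0.58, 0.17 and 0.18 in the same order, against 0.10, 0.05 and 0.01 over all tested genes. Scaling by the library total instead of TMM moved the median of all genes in Hdac2 ECKO to 0.35 (1469 genes higher and 357 lower, against 480 and 677 with TMM) and that of the 7 to 0.83.

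Gene length moved with these differences most clearly in Hdac2 ECKO. The transporters have 5480 to 15092 bases of exon. In Hdac2 ECKO against WT, genes with over 5000 bases (5404 genes) had a median log2 fold change of 0.49 and those under 1500 bases (984 genes) of −0.27. With the trend over length removed, the median of the 7 transporters was −0.03 in Hdac2 ECKO, −0.07 in the labelled Ezh2 ECKO libraries and 0.06 in beta-catenin GOF, and 3, 3 and 4 of them lay above 0. Abca1 still passed in Hdac2 ECKO (log2 fold change 1.11, SE 0.263, adjusted p 0.0402 by edgeR), 1 of 7 transporters where 4.74% of all genes passed. Abcb1a and Abcc4 stood at 0.41 and 0.34 (edgeR adjusted p 0.177 and 0.337) and Abcg2 at −0.26 (0.522). Abcc5 moved further below 0, from −0.31 to −0.87 (SE 0.351), and did not pass (adjusted p 0.135 by edgeR). The part of length in the differences beyond this fit was not tested.

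**Figure D4:**
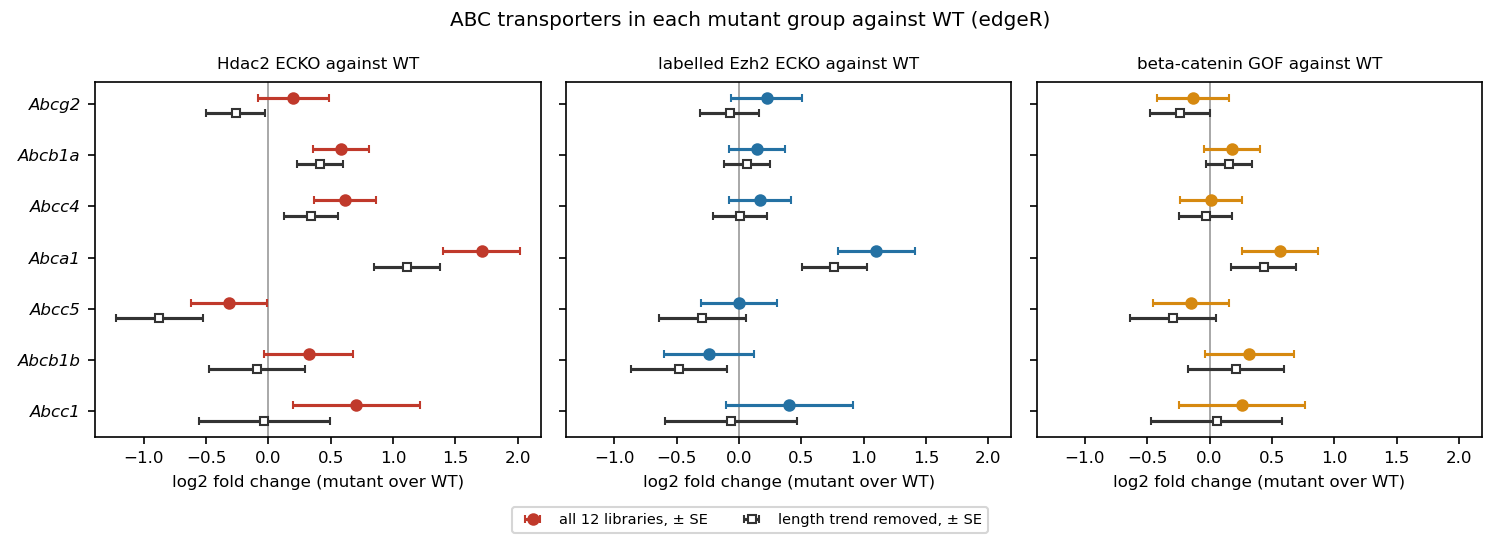
Log2 fold change (± SE) of each transporter in each mutant group over WT, as fitted across the 12 libraries (filled circles) and with the trend over gene length removed (open squares). Abca1 lies highest in every panel, and removing the trend moves most values in the Hdac2 ECKO panel toward or below 0.

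Markers of other cells also differed between groups. The summed level of 12 pericyte markers was 38.6 to 63.6 CPM in WT, 89.2 to 172 in Hdac2 ECKO, 41.2 to 49.7 in the labelled Ezh2 ECKO libraries and 90.1 to 188 in beta-catenin GOF. In Hdac2 ECKO 4 of the 11 tested pericyte markers and 2 of the 6 tested smooth muscle markers rose, against 3.82% of all tested genes. The 8 smooth muscle markers summed to 43.0 to 85.9 CPM in WT, 78.1 to 250 in Hdac2 ECKO, 35.5 to 49.3 in labelled Ezh2 ECKO and 55.5 to 316 in beta-catenin GOF, and 2 of them were at 0 in every WT library. The 8 erythroid and platelet markers, mostly haemoglobin, summed to 36100 to 61400 CPM in WT, 406 to 21700 in Hdac2 ECKO, 2530 to 6700 in the labelled Ezh2 ECKO libraries and 528 to 35400 in beta-catenin GOF. The platelet markers did not all follow this sum. In the same order, Itga2b averaged 7.37, 9.04, 13.0 and 19.1 CPM, Pf4 5.39, 9.34, 6.91 and 5.38, and Gp1bb 0.591, 0.266, 0.773 and 0.862. Of the 8 erythroid and platelet markers, 1 fell in Hdac2 ECKO, where 5.38% of all tested genes fell, and 0 passed in the other mutants. The 11 microglia markers summed to 72.9 to 101 CPM in WT, 40.6 to 63.2 in Hdac2 ECKO, 52.4 to 91.3 in labelled Ezh2 ECKO and 58.1 to 83.6 in beta-catenin GOF. The 8 astrocyte markers summed to 24.0 to 36.3 CPM in WT, 50.8 to 76.2 in Hdac2 ECKO, 44.2 to 80.0 in labelled Ezh2 ECKO and 37.3 to 54.1 in beta-catenin GOF, so that all 9 mutant libraries lay above WT, as for Abca1. Gja1 made up most of this sum (25.9, 49.9, 50.1 and 42.7 CPM on average), while Gfap and Aqp4 reached at most 1.14 and 1.8 CPM, and 0 of the 4 tested astrocyte markers passed in any mutant. The 6 choroid plexus markers, led by Ttr, summed to 1.71 to 2.47 CPM in WT, 2.42 to 112 in Hdac2 ECKO, 23.9 to 182 in labelled Ezh2 ECKO and 0.449 to 33.8 in beta-catenin GOF, and 0 of the 3 tested passed. The part of these cells in the transporter levels was not tested.

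Genes that regulate or work with the transporters were then read from lists. Of 16 tested LXR targets and lipid-handling partners, 2 rose and 2 fell in Hdac2 ECKO, where 3.82% of all tested genes rose and 5.38% fell. In either other mutant 0 passed. The list's median log2 fold change was 0.28, −0.14 and −0.20 in the order above, and 0.08, −0.34 and −0.08 with the length trend removed. Srebf1, an LXR target that encodes a regulator of lipid synthesis, had 5.97, 6.59 and 6.8 CPM in WT and 22.8, 11.2 and 19.5 CPM in Hdac2 ECKO. It rose 2.76-fold (95% interval 1.68 to 4.54, log2 fold change 1.46, SE 0.338, adjusted p 0.0338 by edgeR). Like Abca1, Srebf1 lay above the WT range in all 9 mutant libraries, with 19.2, 10.7 and 15.6 CPM in the labelled Ezh2 ECKO libraries (adjusted p 0.0708 by edgeR) and 15.2, 11.1 and 9.35 CPM in beta-catenin GOF (0.748). These comparisons share the 3 WT libraries, and how many of all tested genes lay above WT in all 9 mutant libraries was not counted.

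Scd2, a fatty acid desaturase, rose from 56.4 ± 15.9 to 107 ± 14.7 CPM in Hdac2 ECKO (log2 fold change 0.93, adjusted p 0.0456 by edgeR). Pltp, the phospholipid transfer protein, fell from 1930 ± 915 to 657 ± 397 CPM (log2 fold change −1.55, adjusted p 0.0498 by edgeR), although its groups overlapped. Npc2, which binds cholesterol in lysosomes, fell from 196 ± 41.7 to 82.5 ± 36.1 CPM (log2 fold change −1.25, adjusted p 0.0417 by edgeR). Abcg1, another LXR target and the closest functional partner of Abca1, did not pass, with 7.43, 10.1 and 5.06 CPM in WT and 11.4, 8.22 and 10.7 CPM in the mutant (log2 fold change 0.43, SE 0.361, adjusted p 0.425 by edgeR). It was chosen after its values were seen.

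Of 20 tested transcription factors that can regulate transporter genes, 2 rose in Hdac2 ECKO, Srebf1 and Arnt, against 3.82% of all tested genes. In the other mutants 0 passed. Arnt, the partner of the aryl hydrocarbon receptor, rose to 26.5 ± 3.02 CPM from 11.6 ± 1.72 CPM in WT (log2 fold change 1.19, SE 0.301, adjusted p 0.036 by edgeR). The LXR genes Nr1h2 and Nr1h3 are named although they did not pass. Their log2 fold changes were −1.08 and 0.06 in Hdac2 ECKO (edgeR adjusted p 0.0686 and 0.965). They were −1.08 and −2.32 in the labelled Ezh2 ECKO libraries (0.103 and 0.12) and −0.36 and 0.24 in beta-catenin GOF (0.939 and 0.985). The median of this list was 0.28 in Hdac2 ECKO, 0.37 in the labelled Ezh2 ECKO libraries and 0.21 in beta-catenin GOF, and 0.31, 0.20 and 0.12 with the length trend removed. Of 10 tested scaffold, caveolar and membrane partner genes, 0 rose and 2 fell in Hdac2 ECKO, where 5.38% of all tested genes fell. In the other mutants 0 passed. The medians were −0.35, −0.11 and −0.25, and −0.08, 0.10 and −0.26 with the length trend removed, which turns the sign in the labelled Ezh2 ECKO group. Cav1, the coat protein of caveolae, fell from 1230 ± 463 to 520 ± 83.9 CPM (log2 fold change −1.24, adjusted p 0.0342 by edgeR). Bsg (basigin), a membrane chaperone of transporters, fell from 34200 ± 5240 to 10200 ± 6510 CPM (log2 fold change −1.75, adjusted p 0.0405 by edgeR).

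Of 27 tested genes among the 46 other ABC transporters, 1 rose in Hdac2 ECKO, near the 3.82% of all tested genes that rose. In the other mutants 0 passed. The list's median log2 fold change was 0.51, 0.33 and 0.17 in the order above, and 0.12, 0.10 and 0.10 with the length trend removed. The called gene was Abcb10, a mitochondrial transporter, with 4.3, 5.38 and 7.9 CPM in WT and 15.8, 11.9 and 11.7 CPM in the mutant (log2 fold change 1.16, SE 0.349, adjusted p 0.0493 by edgeR). With the length trend removed Abcb10, Arnt, Bsg, Pltp and Scd2 no longer passed (edgeR adjusted p 0.0603, 0.0747, 0.0548, 0.11 and 0.0735), while Cav1, Npc2 and Srebf1 did (0.0435, 0.0444 and 0.0412). With the other scalings Abcb10, Scd2 and Pltp were lost under median-ratio scaling (edgeR adjusted p 0.0541, 0.0507 and 0.0507), Npc2 and Pltp under the library total (0.0595 and 0.0698), and Cav1 and Pltp under quantile normalization (limma adjusted p 0.0524 and 0.0646). Abcb10 was also lost without a filter on low counts (0.0551) and with the 2 groups compared alone (0.0519). Srebf1 passed in all 13 settings that kept every library. Arnt, Bsg, Cav1, Npc2, Pltp and Srebf1 were called in 2 of the 6 fits without 1 library of Hdac2 ECKO or WT, and Abcb10 and Scd2 in 1, with adjusted p-values over these fits from 0.0124 (Bsg) to 0.198 (Pltp).

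Finally, the patterns of the 7 transporters over the 12 libraries were compared, as descriptions across libraries that share depth, scaling and the length trend. The highest Pearson correlations of log2 CPM among the 21 pairs were those of Abcb1a with Abcc4 (0.80), Abcc4 with Abca1 (0.72) and Abcb1a with Abca1 (0.69), and the lowest was that of Abcb1a with Abcc5 (−0.66). Abcb1a and Abcb1b correlated at 0.14. Among the 9836 genes whose mean count reached 100, those most like Abca1 were Cbx3 and Sepsecs (r = 0.954 each). Those most like Abcb1a were Per3 (0.965) and Susd6 (0.962), and those most like Abcg2 were Tbc1d15 (0.945) and Usp1 (0.927). For Abcc4 they were Rlf (0.932) and Gpsm1 (0.929), for Abcb1b Tollip (0.918) and Dtnb (0.884), for Abcc1 Retreg1 (0.882) and Fam168b (0.837), and for Abcc5 Gm13199 (0.883) and Osgin2 (0.859).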

How the data were processed

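Per the labels, the SMART-Seq v4 PLUS kit was used and sequencing was paired-end. The submitters' processing notes name FastQC, cutadapt, STAR, featureCounts, DESeq2 and mm10, with no versions. The authors deposited 1 table of counts per gene. Its title calls it normalized, but the values are whole numbers, and 79.5% to 84% of those from 10 to 50 are even, as if each mate had been counted singly. Counting error is therefore larger than the counts imply.

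The counts were fitted with edgeR 4.0.16 (quasi-likelihood test, TMM scaling, 1 term per group, all 12 libraries, R 4.3.3) for the 12577 genes whose mean count reached 10. P-values were adjusted by Benjamini-Hochberg over all of them within each comparison, with a threshold of 0.05. CPM is TMM-scaled, and CPM per kb divides it by the exon length in the table. DESeq2 1.42.0 and limma 3.58.1 served as alternatives. The fit was also run on simulated counts with planted changes, drawn independently for each library. Those counts held no outlying libraries and no counting of single mates, so they do not show how the fit behaves on these libraries. The length trend was removed as an offset from a lowess curve of each library's deviations over log exon length. Gene coordinates are GENCODE M21 (GRCm38). The named genes of each list were those past the threshold, and the 2 most similar genes were taken by correlation.

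Same-numbered libraries of Hdac2 ECKO and the labelled Ezh2 ECKO group deviated together (r = 0.193, 0.426 and 0.131), which comes from the data and not from the labels. Hdac2 ECKO library 1 with labelled Ezh2 ECKO library 3 (0.205), and library 3 with library 1 (0.124), did so too. Pairs of a library 2 with a library 1 or 3 had r from −0.297 to −0.188. These values therefore do not show that the numbers pair libraries. The block changed no transporter's call there. The transporters and the lists were chosen with earlier results of these data known.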

Additional observations from a re-analysis of the deposited data

How the results depend on the processing

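Leaving out 1 library from a group leaves 2 in it. Over such fits the number of transporters called was 0 to 1 in Hdac2 ECKO, in the labelled Ezh2 ECKO group and in beta-catenin GOF against Hdac2 ECKO, and the number of all genes called was 0 to 2216, 2 to 2329 and 0 to 4 in Hdac2 ECKO, labelled Ezh2 ECKO and beta-catenin GOF against WT. With all libraries kept, transporters called in Hdac2 ECKO (1) became 3 with scaling by library total, 2 with quantile normalization, 2 with DESeq2 and 3 with sample quality weights. In the labelled Ezh2 ECKO group, and in beta-catenin GOF against Hdac2 ECKO, 0 became 1 with DESeq2, without a filter and with weights. All genes called in Hdac2 ECKO (1157) became 1826 with the library total, 2118 with quantiles, 2553 with DESeq2, 2279 without a filter, 5374 with weights and 596 with the length trend removed. In the labelled Ezh2 ECKO group 129 became 76 with median-ratio scaling, 30 with the library total, 307 with quantiles, 1280 with DESeq2, 348 and 266 with limma at pseudocounts of 1 and 0.1 CPM, 1367 without a filter, 219 at a mean count of at least 50, 3743 with weights and 17 with the 2 groups alone. In beta-catenin GOF 0 became 7 with quantiles, 38 with DESeq2, 7 and 1 with limma, 157 without a filter and 26 with weights. The causes of these shifts were not tested.

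With the replicate number as a block 1832, 536 and 0 genes were called in Hdac2 ECKO, labelled Ezh2 ECKO and beta-catenin GOF against WT (573 in the labelled Ezh2 ECKO group with the length trend removed too), and the transporters called were 1, 0 and 0. The numbers did not pair libraries with WT (r of same-numbered deviations from −0.253 to 0.111), and the block changed no other call of a transporter.

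Signs turned only for values that had not passed. With the length trend removed, without and with the block, Hdac2 ECKO gave −0.092 and −0.17 for Abcb1b, −0.26 and −0.27 for Abcg2 and −0.032 and −0.14 for Abcc1. The labelled Ezh2 ECKO group gave −0.075 and −0.076 for Abcg2 and −0.065 and −0.26 for Abcc1. In beta-catenin GOF Abcc4 gave −0.032 and −0.014, and −0.004 with median-ratio scaling and −0.004 with DESeq2, while Abcc1 gave −0.12 with both. Quantile normalization gave −0.072 for Abcb1a and 0.035 for Abcc5 in the labelled Ezh2 ECKO group. Leaving out 1 library gave −0.02 to 0.37 for Abcg2 in Hdac2 ECKO. In the labelled Ezh2 ECKO group it gave −0.002 to 0.31 for Abcb1a, −0.05 to 0.73 for Abcc1, −0.01 to 0.37 for Abcc4 and −0.25 to 0.14 for Abcc5. In beta-catenin GOF it gave −0.15 to 0.55 for Abcc1 and −0.16 to 0.22 for Abcc4. Abca1 kept its sign in every setting, and its log2 fold change in Hdac2 ECKO ran from 1.08 to 1.94.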
